A study of Homo sapiens with 35 samples.

Results

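Matrix metalloproteinases (MMPs) and tissue inhibitors of metalloproteinases (TIMPs) were followed in U-87 MG, a human glioma cell line, as RNA and as sites of p52, ETS1 and RNA polymerase II (RNA Pol II) binding. The group comprised 9 genes, MMP1, MMP2, MMP3, MMP9, MMP13, MMP14, TIMP1, TIMP2 and TIMP3, which were taken by symbol from the 62696 genes of the RNA-seq count table. In chromatin immunoprecipitation followed by sequencing (ChIP-seq), every peak over one of these genes or within 15 kb of one of its annotated start sites was counted as a peak of that gene.

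All groups were U-87 MG cells starved for 8 h. RNA-seq covered control cells left untreated, control cells given 10 ng/ml of TWEAK for 48 h with a second dose after 24 h, and TWEAK-treated cells with CRISPR-Cas9 knockdown (KD) of ETS1 or of NFKB2, with 3 biological replicates each. ChIP-seq had 2 replicates per condition and covered p52 in untreated and TWEAK-treated control cells and in TWEAK-treated ETS1 KD cells made with guide 1 or guide 2. It covered ETS1 in untreated and TWEAK-treated control cells, and RNA Pol II in the same 4 conditions as RNA-seq. Untreated KD cells and ETS1 ChIP-seq of KD cells were not analysed here, and the RNA-seq labels do not give the guide. KD cells were transduced cultures of 1 cell line, so replicates measure the spread within this line.

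MMPs are zinc-dependent endopeptidases that are made as inactive proenzymes and, once activated, cut collagens, gelatin, laminins and other matrix proteins. TIMPs bind the active site of MMPs and block them, and TIMP2 also takes part with MMP14 in the activation of proMMP2 at the cell surface. MMP2, MMP9 and MMP14 are known for their role in the invasion of glioma cells. TWEAK, a cytokine of the tumour necrosis factor family, acts through its receptor Fn14 (TNFRSF12A) and activates non-canonical NF-κB signalling, in which the NFKB2 protein p100 is cut down to p52. MMP promoters are textbook targets of AP-1, NF-κB and ETS factors.

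The RNA-seq libraries held 28384201 to 40192606 counts. The targeted genes followed their labels. In counts-per-million units (CPM), given as mean ± SD of 3 replicates, ETS1 averaged 33.0 ± 4.78 with ETS1 KD against 77.5 ± 8.69 in TWEAK-treated control libraries, and NFKB2 averaged 91.0 ± 14.7 with NFKB2 KD against 290 ± 55.3. Of the glial and mesenchymal markers, vimentin (VIM) had group means from 9105 to 16344 CPM, while the astrocyte marker GFAP had 2 to 13 counts. Of the markers of other lineages, the 4 of leukocytes summed to 1.54 to 3.77 CPM, with PTPRC at 0 to 3 counts. The 3 neuronal markers summed to 14.7 to 21.7 CPM, most of it SNAP25, with RBFOX3 at 0 in every library. Endothelial markers summed to 2.44 to 5.31 CPM and epithelial markers to 0.743 to 2.12 CPM. Libraries differed in a trend with GC content, and untreated replicate 3 and NFKB2 KD replicate 2 lay furthest to the GC-rich side, by 0.44 and 0.55 on the log2 scale.

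p52 peaks at this gene family lay at MMP9, MMP14, MMP2 and MMP1. The sequences under these peaks are shown because they are the only p52 sites of the family found in both replicates of a condition. Each is the 201 bases of hg38 around the summit of its strongest peak, 5′ to 3′ on the strand of the gene. Capitals mark matches, on either strand, to the NF-κB (κB) consensus, to the ETS element AGGAAG or to the AP-1 element TGANTCA. A second ETS element, CTTCCGG, was also searched and was in none of the 4.
MMP9, chr20:46008193-46008393, plus strand, upstream of the gene: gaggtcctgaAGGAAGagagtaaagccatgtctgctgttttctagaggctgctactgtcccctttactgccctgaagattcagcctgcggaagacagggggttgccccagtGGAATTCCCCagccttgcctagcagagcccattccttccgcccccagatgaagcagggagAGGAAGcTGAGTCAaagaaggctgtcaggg
MMP14, chr14:22838914-22839114, plus strand, intron 1: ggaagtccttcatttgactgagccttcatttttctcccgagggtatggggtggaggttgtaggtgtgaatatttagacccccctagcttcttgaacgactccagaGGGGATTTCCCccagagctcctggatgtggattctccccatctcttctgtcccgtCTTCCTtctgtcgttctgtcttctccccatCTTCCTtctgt
MMP2, chr16:55487072-55487272, plus strand, intron 5: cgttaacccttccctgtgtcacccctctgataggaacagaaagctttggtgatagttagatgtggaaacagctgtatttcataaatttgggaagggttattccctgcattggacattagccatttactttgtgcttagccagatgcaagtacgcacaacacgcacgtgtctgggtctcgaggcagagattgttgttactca
MMP1, chr11:102794493-102794693, minus strand, intron 6: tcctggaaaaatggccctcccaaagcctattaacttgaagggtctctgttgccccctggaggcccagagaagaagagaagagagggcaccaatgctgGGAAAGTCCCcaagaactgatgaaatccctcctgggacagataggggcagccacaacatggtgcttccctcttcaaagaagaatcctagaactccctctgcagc

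The MMP9 region held a κB match, 2 AGGAAG elements and an AP-1 element, with the second AGGAAG and the AP-1 element 1 base apart. The middle of its κB match was 599 bp before the start of MMP9 and 16 bases from the summit. The MMP14 region held 2 overlapping κB matches, 10 and 11 bases from the summit, and 2 AGGAAG elements, while MMP1 held a single κB match 2 bases from its summit. MMP2 held none of these letters. Among the 2911 p52 sites on assembled chromosomes that were in both replicates of TWEAK-treated control cells, 72.4% held a κB match within a window of the same length, 24.4% an AGGAAG, 24.2% an AP-1 element and 2.1% a CTTCCGG. Of the 4 family sites, 3 held a κB match, 2 an AGGAAG and 1 an AP-1 element.

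MMP1 and MMP9 were the members whose RNA rose with TWEAK in control cells. In this comparison of TWEAK-treated with untreated control cells, edgeR's quasi-likelihood test called 2 members, both higher, of 8 tested and 9 in the family. MMP9 had 0 counts in untreated cells and passed the filter on low counts only through TWEAK-treated libraries. Its place among the 8 was therefore not independent of its rise, here and in the comparisons of KD with untreated cells below. Over all 16879 genes tested, 3.08% were called in either direction, 1.55% higher and 1.53% lower, at a Benjamini-Hochberg adjusted p under 0.05. The median log2 fold change of the 8 tested members was 0.24, against 0.02 over all genes. MMP13, a collagenase, had 1 count in the 12 libraries together and was not tested.

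**Figure D1:**
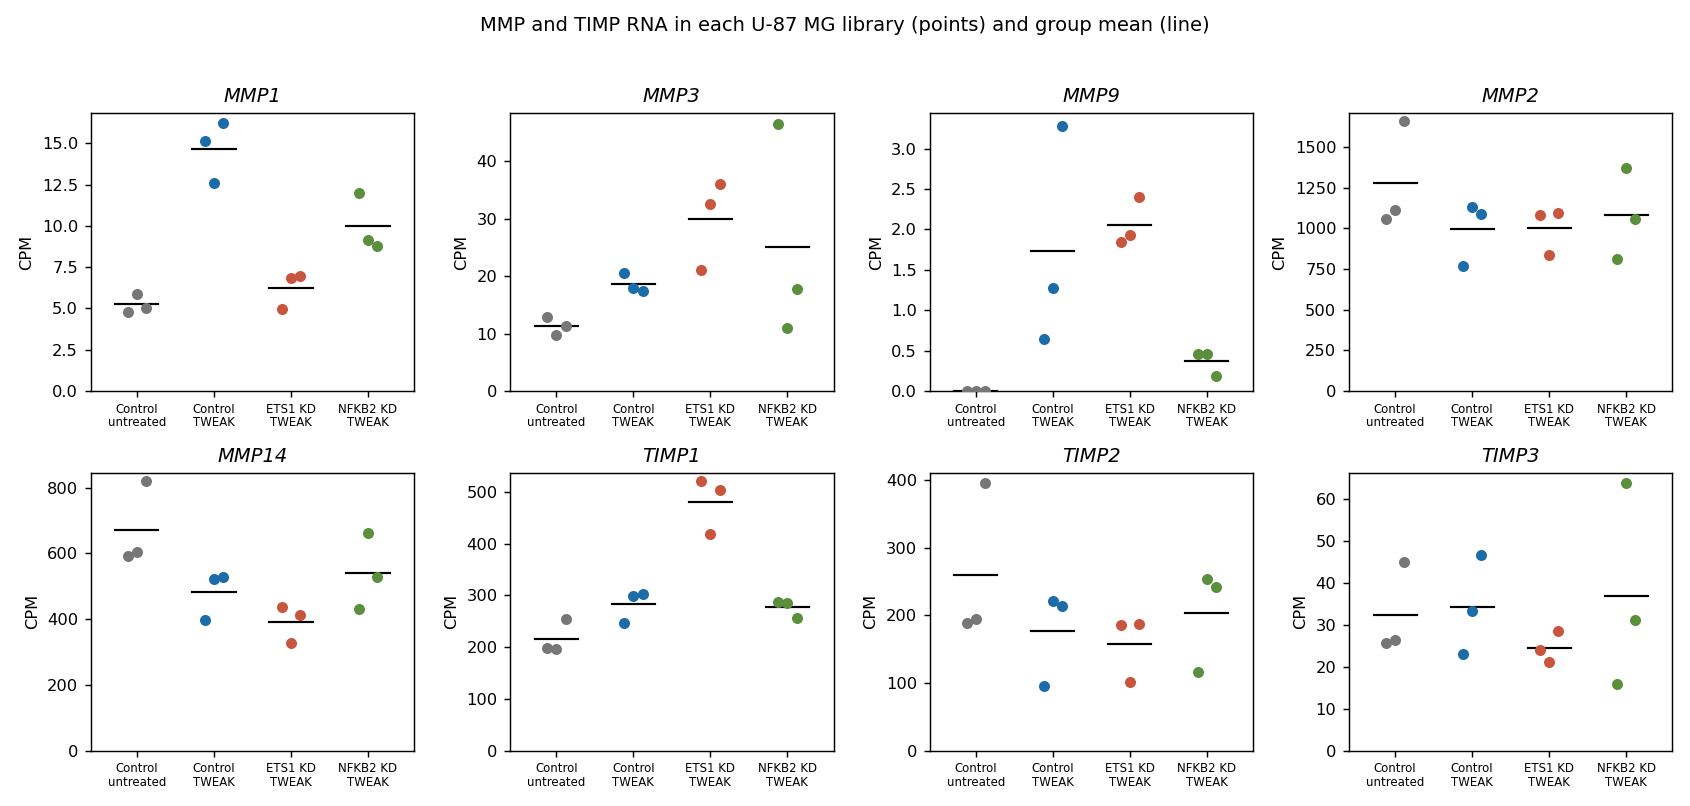
RNA level of 8 family members in CPM (vertical axis, from 0) in each of 12 U-87 MG RNA-seq libraries, grouped by condition, with a line at the mean of the 3 replicates. MMP1 was at 12.6 to 16.3 CPM in TWEAK-treated control cells and at or below 6.94 CPM in untreated and ETS1 KD cells, and MMP9 had no count in any untreated library.

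MMP1, the interstitial collagenase that cuts fibrillar collagens, had 4.79, 5.90 and 5.06 CPM in the untreated replicates and 15.1, 12.6 and 16.3 CPM after TWEAK. The groups did not overlap. The rise was 2.79-fold (log2 fold change 1.48 ± 0.18, SE, adjusted p = 0.00069 by edgeR), and it was called in all 12 alternatives run, with adjusted p from 1.57e-11 to 0.00638.

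MMP9, a gelatinase that cuts type IV collagen of basement membranes, had 0 counts in each of the 3 untreated libraries. After TWEAK it had 18, 51 and 118 counts, or 0.645, 1.27 and 3.27 CPM. All treated libraries lay above all untreated ones, but the treated ones spread widely and the gene stayed the weakest of the tested members, at a mean of 0.740 RPKM. Against a floor of 3 counts over the untreated group, the rise was at least 55.9-fold (adjusted p = 0.00328 by edgeR, and 4.28e-27 to 0.0151 over 12 alternatives). This bound was 31.5-fold without TWEAK-treated control replicate 3, 36.4-fold without untreated replicate 2 and 36.7-fold without untreated replicate 3. Floors cover counting error only.

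MMP9 is also a product of leukocytes, and 1 of the 4 leukocyte markers, ITGAM, rose with it. ITGAM went from 0.022 ± 0.019 to 1.09 ± 0.365 CPM (log2 fold change 5.46 ± 0.52, adjusted p = 0.000193 by edgeR). The summed level of the 4 markers was 1.54 to 1.88 CPM in untreated and 2.65 to 3.08 CPM in TWEAK-treated control cells, and the defining marker PTPRC had at most 1 count in each treated library. In NFKB2 KD cells, where MMP9 was lower, ITGAM was at 1.59 ± 0.297 CPM and PTPRC at 0 counts. All libraries came from cultures of 1 cell line, U-87 MG. In bulk RNA, more cells that express a gene and more RNA per expressing cell cannot be told apart, and this was not tested.

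The other 6 tested members were not called with TWEAK. MMP3, or stromelysin-1, which activates other proMMPs, had 12.9, 9.67 and 11.3 CPM untreated and 20.5, 17.9 and 17.5 CPM after TWEAK, without overlap. Its difference (log2 fold change 0.72 ± 0.40) had an adjusted p of 0.463 by edgeR. The fit shared its estimate of spread over the 4 groups. MMP3 had an SD of 18.8 CPM in NFKB2 KD cells, against 1.60 untreated and 1.62 after TWEAK. What this spread did to the SE was not tested. MMP14, the membrane-type MMP that activates proMMP2, had 593, 604 and 820 CPM untreated and 397, 522 and 528 CPM after TWEAK, again without overlap. Its log2 fold change was -0.48 ± 0.19 (adjusted p = 0.232 by edgeR). The share of all genes whose groups did not overlap was not computed for any comparison, so non-overlap of members is a description only. TIMP1, a secreted inhibitor of most MMPs, had 199, 196 and 254 CPM untreated and 247, 299 and 303 CPM after TWEAK (0.39 ± 0.13 on the log2 scale, adjusted p = 0.161).

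MMP14 and TIMP1 were both called once GC content and gene length were fitted as offsets, in opposite directions. MMP14 then differed by -0.46 ± 0.10 (adjusted p = 0.0187) and TIMP1 by 0.38 ± 0.10 (adjusted p = 0.0442), both on the log2 scale. Over the 12 alternatives, the adjusted p of MMP14 ranged from 0.00934 to 0.48 and that of TIMP1 from 0.028 to 0.509.

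The gelatinase MMP2, TIMP2 and the matrix-bound inhibitor TIMP3 had overlapping groups. MMP2 was at 1060 to 1664 CPM untreated and 771 to 1129 CPM after TWEAK (log2 fold change -0.36, 95% interval -0.80 to 0.07). TIMP2 was at 189 to 396 CPM and 95.3 to 221 CPM (-0.55, interval -1.33 to 0.22), and TIMP3 at 25.7 to 44.9 CPM and 22.9 to 46.5 CPM (0.09, interval -0.71 to 0.88). These intervals leave room for changes in either direction. In all of MMP2, MMP14, TIMP1, TIMP2 and TIMP3 the highest untreated value was that of replicate 3, the GC-rich library.

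ETS1 KD lowered MMP1 and raised TIMP1 in TWEAK-treated cells. These were the 2 members called in the comparison of ETS1 KD with control cells, both TWEAK-treated, in which 1.39% of all tested genes were called, 0.255% higher and 1.13% lower. MMP1 had 4.95, 6.83 and 6.94 CPM in the ETS1 KD libraries, all below the 3 TWEAK-treated control libraries and overlapping the untreated range. It fell by 1.23 ± 0.18 on the log2 scale (2.35-fold, adjusted p = 0.00364 by edgeR), and the call held in all 12 alternatives (0.019 at most). Set against untreated control cells, MMP1 in TWEAK-treated ETS1 KD cells differed by 0.25 (95% interval -0.11 to 0.60) on the log2 scale.

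TIMP1 had 521, 419 and 504 CPM in the ETS1 KD libraries, above every library of the other 3 groups. It was 1.70-fold higher than in TWEAK-treated control cells (log2 fold change 0.76 ± 0.13, adjusted p = 0.0108 by edgeR). The direction stayed in all 12 alternatives, but the call was lost without TWEAK-treated control replicate 1 (adjusted p = 0.0542) or 2 (0.0520), and without ETS1 KD replicate 1 (0.0788) or 3 (0.0655). With the GC and length offsets the call was kept.

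MMP9 had 1.85, 1.93 and 2.40 CPM in ETS1 KD cells, inside the range of the TWEAK-treated control libraries (log2 fold change 0.24, 95% interval -0.70 to 1.17). Its log2 fold change was 1.07 (adjusted p = 0.408, of a range from 0.408 to 0.997 over 12 alternatives) without TWEAK-treated control replicate 3 and -0.13 without replicate 1. MMP3 had 21.0, 32.6 and 36.0 CPM, above all TWEAK-treated control libraries, with a difference of 0.68 ± 0.39 on the log2 scale and an adjusted p of 0.569. MMP2 (0.01 ± 0.22), MMP14 (-0.30 ± 0.19), TIMP2 (-0.16 ± 0.39) and TIMP3 (-0.49 ± 0.41), with log2 differences ± SE, were not called.

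NFKB2 KD left MMP9 at a level below the TWEAK-treated control libraries, without a call at the adjusted threshold. MMP9 had 16, 17 and 6 counts in the NFKB2 KD libraries, or 0.463, 0.462 and 0.182 CPM, and every value was below the lowest TWEAK-treated control value. The difference was 4.66-fold (log2 fold change -2.22 ± 0.56, unadjusted p = 0.00232, adjusted p = 0.684 by edgeR). It was called in 2 of 12 alternatives, by DESeq2 (adjusted p = 0.0309) and by edgeR without the filter on low counts (1.42e-06). Over the 12 the adjusted p reached 0.9999. The size rested on TWEAK-treated control replicate 3, without which the log2 fold change was -1.36 ± 0.44, and it was -2.59 without replicate 1.

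Of the 8 tested members, edgeR called 0 with NFKB2 KD, 2 (MMP1 and MMP9) had an unadjusted p under 0.05, and DESeq2 called 1. Over all genes edgeR called 0.0296% in this comparison, 0.00592% higher and 0.0237% lower, and DESeq2 called 10 genes higher and 26 lower. The share of all genes at an unadjusted p under 0.05 alone was not computed. MMP1 had 11.98, 9.13 and 8.81 CPM, between the untreated and the TWEAK-treated control libraries and overlapping neither (log2 fold change against TWEAK-treated control -0.55 ± 0.17, unadjusted p = 0.00728, adjusted p = 0.814). TIMP1 had 288, 286 and 256 CPM, inside the range of TWEAK-treated control cells (-0.03, 95% interval -0.29 to 0.23). MMP3 was at 46.5 CPM in NFKB2 KD replicate 1 and at 11.0 and 17.8 CPM in replicates 2 and 3, the widest spread of MMP3 in any group. MMP2, MMP14, TIMP2 and TIMP3 had their highest NFKB2 KD value in replicate 2, the library furthest to the GC-rich side.

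**Figure D2:**
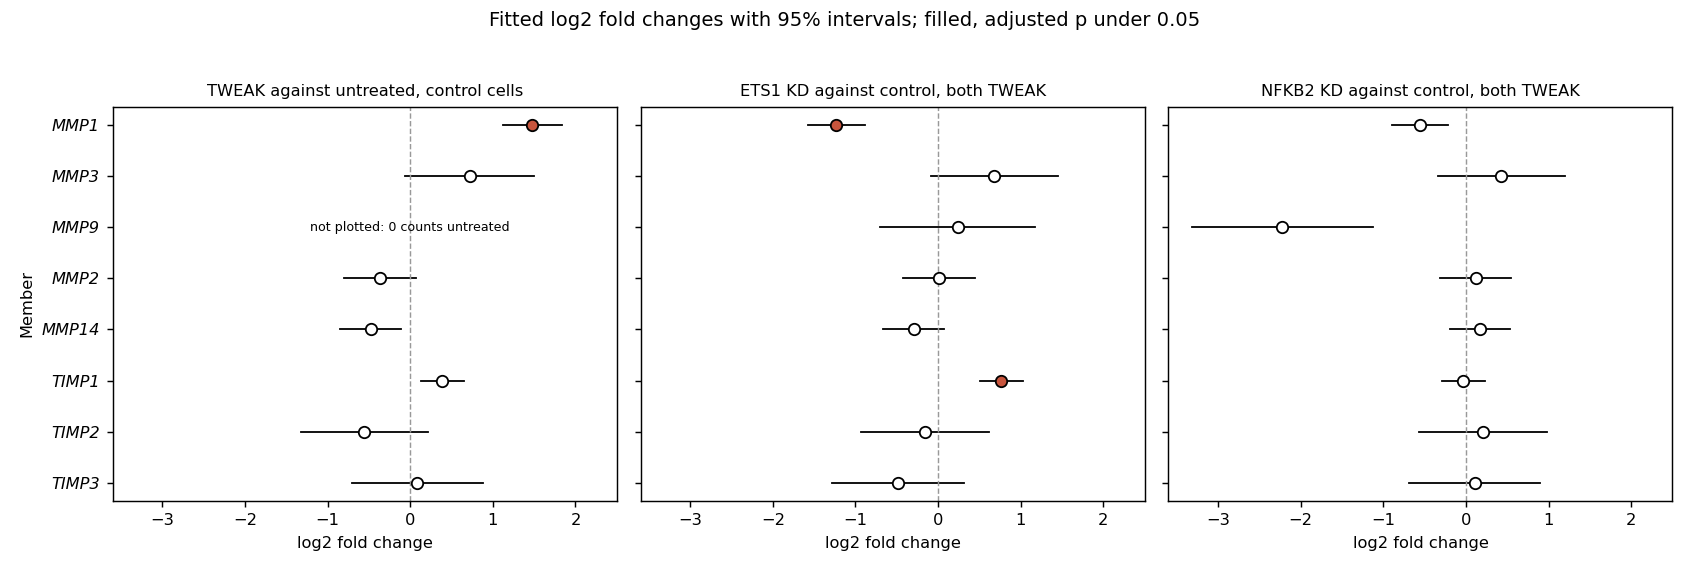
Log2 fold change (horizontal axis) of the 8 tested members in 3 comparisons, with approximate 95% intervals of the edgeR fit as lines. Filled points had an adjusted p under 0.05, which were MMP1 with TWEAK and MMP1 and TIMP1 with ETS1 KD, and MMP9 with TWEAK is not plotted because no untreated library had a count.

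The 2 KD groups differed from each other in TIMP1. It was 1.74-fold higher in ETS1 KD than in NFKB2 KD cells (log2 fold change 0.80 ± 0.13, adjusted p = 0.00958 by edgeR) and was the 1 member called, where 1.94% of all genes were, 0.533% higher and 1.4% lower in ETS1 KD cells. This call was lost without ETS1 KD replicate 1 (adjusted p = 0.0613) or 3 (0.0594) and without NFKB2 KD replicate 3 (0.0697). MMP9 was 5.49-fold higher in ETS1 KD than in NFKB2 KD cells (2.46 ± 0.56 on the log2 scale, adjusted p = 0.0541), and MMP1 was at -0.68 ± 0.18 (adjusted p = 0.0764). DESeq2 called both, and each was called in 4 of 12 alternatives. Their adjusted p ranged from 2.24e-09 (edgeR without the filter on low counts) to 0.186 for MMP9 and from 0.0144 to 0.191 for MMP1. These comparisons share the KD libraries with the ones above.

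Against untreated control cells, 4 members were called in TWEAK-treated ETS1 KD cells and 1 in TWEAK-treated NFKB2 KD cells, where 13.8% and 0.604% of all genes were called (6.22% higher and 7.61% lower with ETS1 KD, 0.409% and 0.196% with NFKB2 KD). In ETS1 KD cells MMP3 (2.65-fold, adjusted p = 0.0352), MMP9 (at least 64.2-fold against the floor, 0.000826) and TIMP1 (2.23-fold, 0.000214) were higher and MMP14 (1.71-fold, 0.0155) was lower by edgeR. MMP3 was no longer called without any 1 of the 3 untreated replicates (0.0666 to 0.118) or without ETS1 KD replicate 2 (0.0874) or 3 (0.120). The bound of MMP9 was 41.8-fold without untreated replicate 2 and 42.2-fold without untreated replicate 3. MMP14 was no longer called without untreated replicate 3 (0.0567) or ETS1 KD replicate 2 (0.0758).

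In NFKB2 KD cells MMP1 was 1.90-fold above untreated cells (adjusted p = 0.0388 by edgeR). This call was lost without any 1 untreated replicate (0.0809 to 0.219), without NFKB2 KD replicate 1 (0.135) or 3 (0.0614) and with a replicate block (0.0687). MMP9 was at least 11.6-fold higher against the floor, with an adjusted p of 0.125, and at least 7.58-fold without untreated replicate 2 or 7.65-fold without untreated replicate 3.

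A looser rule, a fold of at least 1.5 together with an unadjusted p no higher than 0.05, gave the same 2 members with TWEAK, where 7.09% of all genes passed it, and the same 2 with ETS1 KD, where 5.67% did. With NFKB2 KD it gave MMP9, where 2.25% of all genes passed. Against untreated cells it gave 4 members with ETS1 KD (14.7% of all genes) and 3 with NFKB2 KD, MMP1, MMP3 and MMP9 (3.98%). Between the KD groups it gave 3 members, MMP1, MMP9 and TIMP1 (7.37%).

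Per length of transcript, MMP2 and MMP14 made up most of the RNA of the MMP members in every library. TIMP1 made up most of that of the TIMP members. MMP2 held 58.4 to 67.9% of the summed MMP RPKM (CPM per kilobase of exon), MMP14 25.9 to 35.4%, MMP3 1.13 to 8.47%, MMP1 0.343 to 2.07% and MMP9 at most 0.387%. TIMP1 held 70.5 to 93.2% of the TIMP sum, TIMP2 5.29 to 25.6% and TIMP3 1.32 to 5.49%. The 2 members called with TWEAK were therefore minor MMP transcripts by level.

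In untreated cells the order by mean RPKM was MMP2 (272 ± 70.9), TIMP1 (149 ± 22.6), MMP14 (145 ± 27.7), TIMP2 (41.8 ± 19.0), TIMP3 (7.03 ± 2.37), MMP3 (6.09 ± 0.865) and MMP1 (1.92 ± 0.211). The neighbours TIMP1 and MMP14 differed by less than the SD of either, and TIMP3 and MMP3 by less than the SD of TIMP3. After TWEAK TIMP1 (196 ± 21.5) and MMP2 (212 ± 41.6) were within their SD, and in ETS1 KD cells TIMP1 (333 ± 38.0) stood above MMP2 (213 ± 30.9).

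Over the members, the ratio of summed MMP to summed TIMP RPKM was 2.14 ± 0.0477 (SD, n = 3) in untreated cells and 1.43 ± 0.0393 after TWEAK. With TWEAK and a KD it was 0.873 ± 0.0199 for ETS1 and 1.56 ± 0.211 for NFKB2. The 3 ETS1 KD libraries, at 0.856 to 0.895, lay below all others, and the untreated libraries, at 2.09 to 2.18, above all others. The sums are those of RNA and were compared as a description, with no test. They leave out TIMP4, which is not a member, at 42.1 ± 1.62 RPKM in untreated cells and 28.3 ± 1.61 after TWEAK. With TWEAK and KD TIMP4 was at 22.5 ± 3.08 RPKM for ETS1 and 29.1 ± 6.91 for NFKB2.

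**Figure D3:**
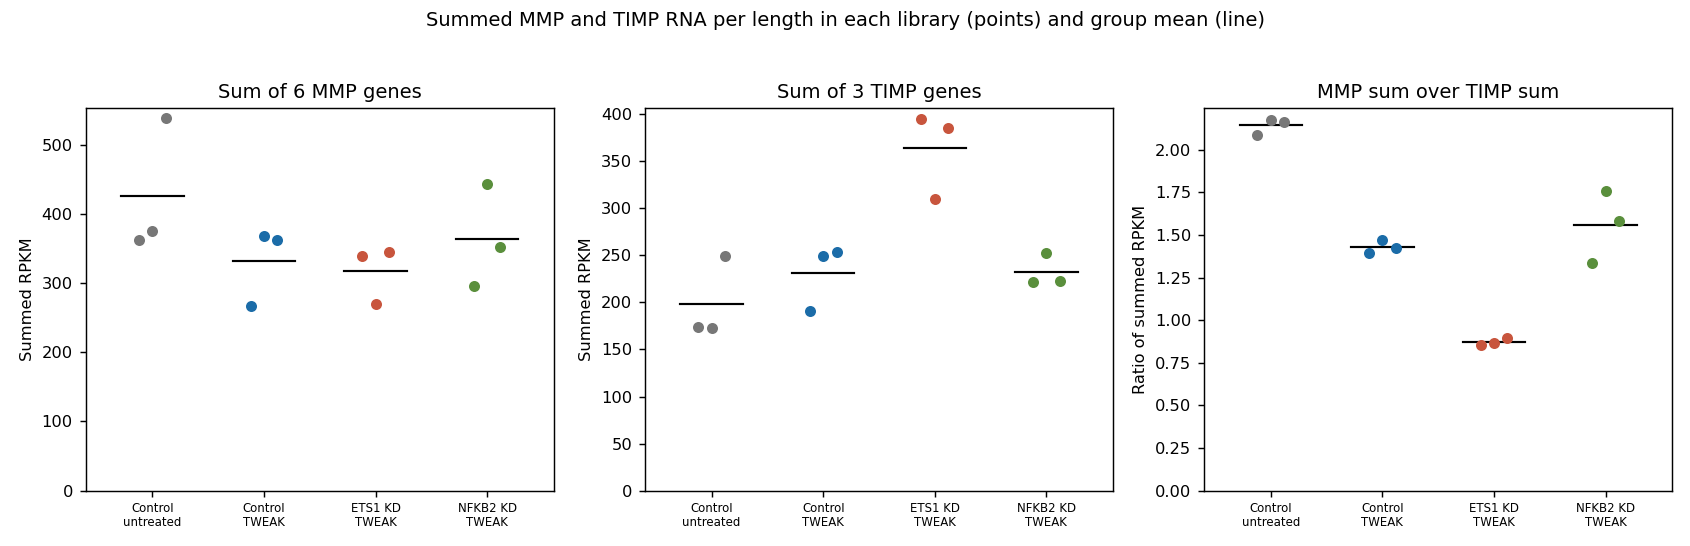
Summed RPKM of the 6 MMP members (left) and the 3 TIMP members (middle) and their ratio (right) in each RNA-seq library, with a line at the mean of 3 replicates. The ratio was 2.09 to 2.18 in untreated and 1.39 to 1.47 in TWEAK-treated control cells, and with TWEAK and KD 0.856 to 0.895 for ETS1 and 1.34 to 1.76 for NFKB2.

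p52 was found at MMP genes only in TWEAK-treated libraries of those examined. In untreated cells none of the 9 members had a p52 peak in either of the 2 lists, which held 714 and 452 peaks and gave 0.0849% of protein-coding genes a site in both replicates and 0.424% a peak in either. In TWEAK-treated control cells 3 members, MMP2, MMP9 and MMP14, had a site in both replicates, where 11.4% of protein-coding genes did. MMP1 had peaks in replicate 2 alone. The lists of these replicates held 3579 and 11761 peaks, and a peak in either list was found for 4 members and for 34.7% of protein-coding genes. With 2 lists per condition no test was made.

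At MMP9 the p52 peak had a fold enrichment over background of 7.23 in replicate 1 and 20.6 in replicate 2, with summits 600 and 615 bp before the start site. It ranked 994th of 11761 peaks by q-value in replicate 2 and 1849th of 3579 in replicate 1. At MMP14 the peak lay in intron 1, 2377 and 2429 bp after the start, with fold enrichments of 6.77 and 14.8. At MMP2 it lay in intron 5, 7994 and 7981 bp after the start and inside a single-exon gene without a symbol, ENSG00000279030, with fold enrichments of 5.64 and 9.52. MMP1 had a peak in intron 6, 3567 bp after the start (fold enrichment 12.4), and a second 10688 bp before it (7.19), in replicate 2.

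In ETS1 KD cells the p52 peaks differed between the guides. With guide 1, 0 members had a site in both replicates, where 5.02% of protein-coding genes did, and MMP1 (fold enrichment 10.9) and MMP9 (15.3) had a peak in replicate 2 alone, against 13.7% of protein-coding genes with a peak in either list. Its lists held 1387 and 3897 peaks. With guide 2, MMP1, MMP2 and MMP14 had a site in both replicates, where 11.6% of protein-coding genes did, and MMP9 had a peak in replicate 1 alone (7.90). A peak in either list was thus found for 4 members and 17% of protein-coding genes.

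The fold enrichment with guide 2 was 10.6 and 10.7 at MMP1, 14.3 and 10.2 at MMP2 and 7.08 and 7.47 at MMP14, above both control values (5.64 and 9.52) at MMP2 and between them (6.77 and 14.8) at MMP14. The guide 2 lists held 4252 and 3938 peaks, and fold enrichment was not scaled between libraries here. A p52 peak at MMP9 was listed in 2 of 2 TWEAK-treated control libraries and in 1 of 2 libraries with each guide.

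**Figure D4:**
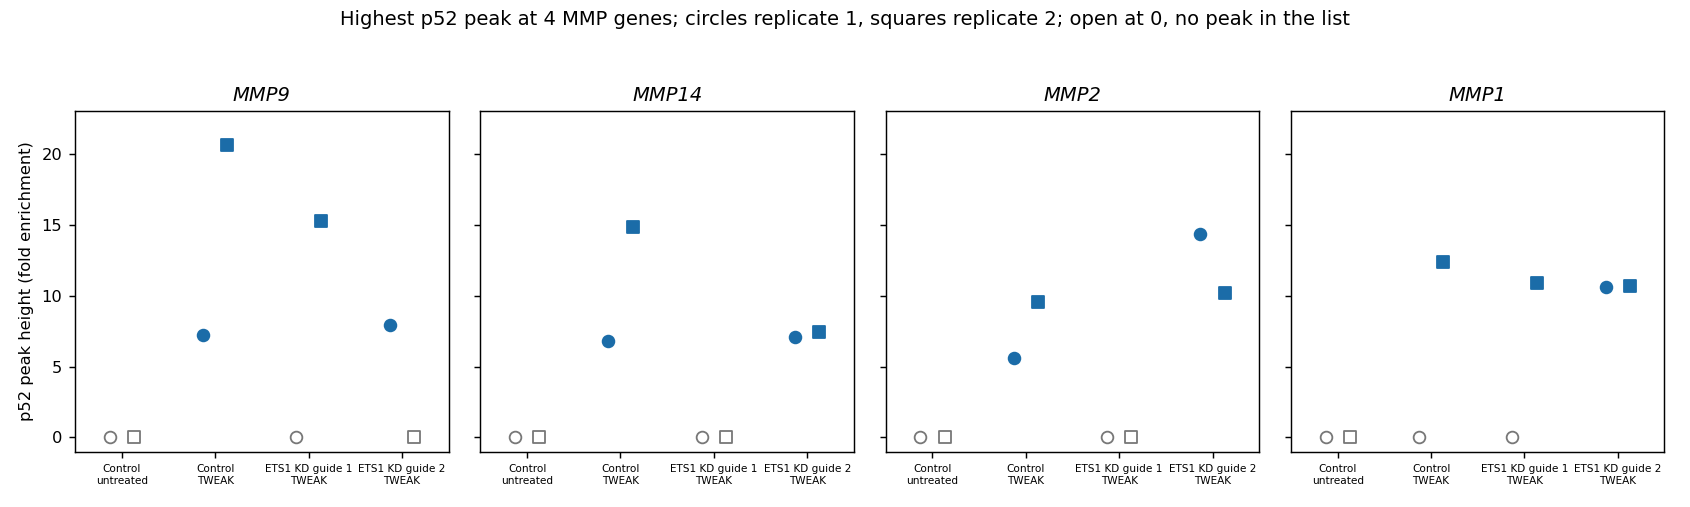
Fold enrichment (vertical axis) of the highest p52 peak over or within 15 kb of MMP9, MMP14, MMP2 and MMP1 in each of 8 p52 ChIP-seq lists, with circles for replicate 1 and squares for replicate 2. Open symbols at 0 mark lists without a peak, which include both untreated lists for all 4 genes, and the highest value was 20.6 at MMP9 in TWEAK-treated control cells.

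ETS1 was not listed at any member. The 4 ETS1 lists, of 2066 to 4372 peaks, held no peak over or within 15 kb of any of the 9 genes, while 6.89% of protein-coding genes in untreated and 9.35% in TWEAK-treated cells had an ETS1 site in both replicates, and 18.8% and 20.6% a peak in either. The ETS1 peak nearest to a start site of a member lay at 33.6 kb for TIMP2, 36.9 kb for MMP9, 64.8 kb for MMP2 and 140 kb for MMP14. For the other 5 members it lay more than 1000 kb away. MMP1 and TIMP1, the members called with ETS1 KD, were among these 5, at 2105 and 1007 kb. A peak missing from a list was not detected at that depth.

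Overlapping RNA Pol II peaks of both replicates were found at MMP2, MMP14, TIMP1 and TIMP2 in each of the 4 conditions. That is 4 of 9 members, where 45.6% of protein-coding genes had such a site in untreated and 53.5% in TWEAK-treated control cells, and with TWEAK and KD 47.1% did for ETS1 and 41.4% for NFKB2. These were the 4 members with the highest RNA level in untreated cells. TIMP3 had a peak in 5 of 8 lists and no site where peaks of both replicates overlapped, MMP3 had 1 peak in 1 TWEAK-treated control list, away from the gene body, and MMP1, MMP9 and MMP13 had none in any list.

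At the start site of TIMP1 the RNA Pol II peak, within 1 kb, had a fold enrichment of 6.05 and 5.81 in untreated cells and of 10.4 and 9.63 after TWEAK. With TWEAK and KD it was 7.68 and 8.69 for ETS1 and 8.35 and 10.1 for NFKB2. The TWEAK-treated control values lay above both untreated ones and above those of ETS1 KD cells, the group in which TIMP1 RNA was highest. At MMP2 the order was the other way, with 9.99 and 10.1 untreated and 6.16 and 5.50 after TWEAK, and with TWEAK and KD 8.06 and 6.81 for ETS1 and 11.4 and 9.14 for NFKB2. TIMP2 had start peaks from 7.72 to 26.4, the highest value of the family, with replicates of ETS1 KD cells at 14.1 and 7.72. MMP14 had values from 6.02 to 8.69 in 7 of 8 lists. The RNA Pol II lists held 11175 to 44672 peaks, and those of NFKB2 KD cells 30310 and 11175. Fold enrichment was not scaled between libraries here, and the orders given were not tested.

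**Figure D5:**
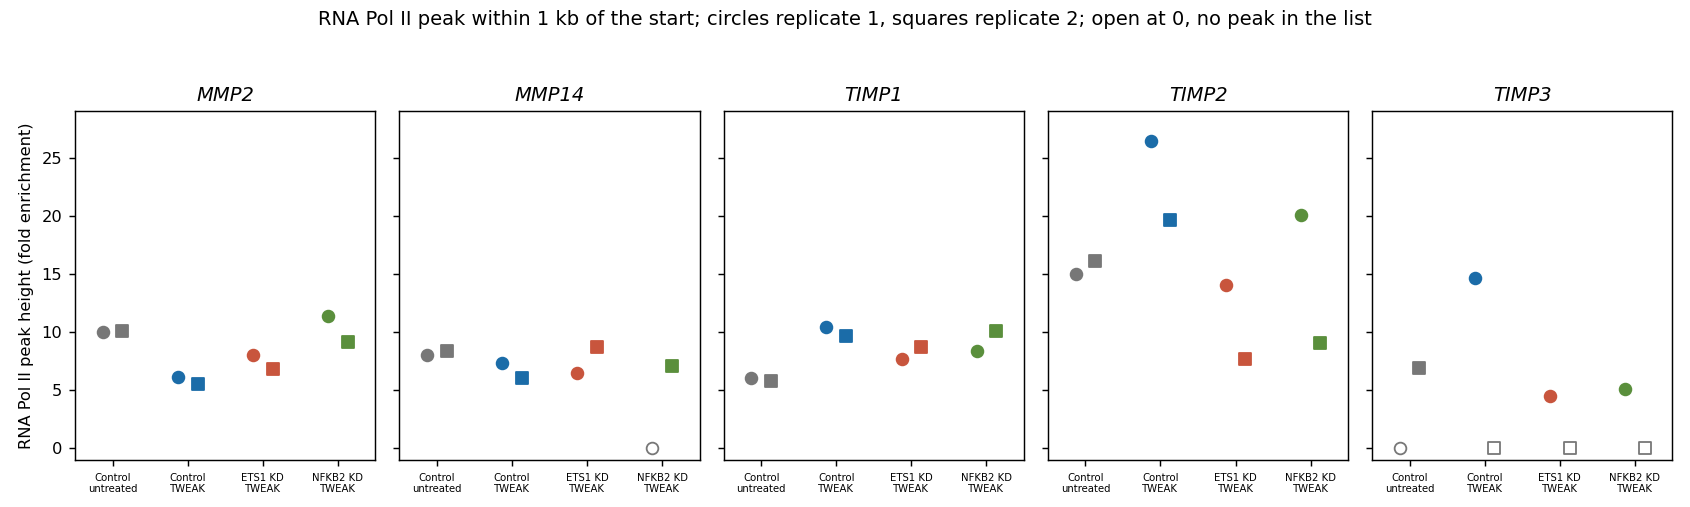
Fold enrichment (vertical axis) of the RNA Pol II peak within 1 kb of the start site of MMP2, MMP14, TIMP1, TIMP2 and TIMP3 in each of 8 ChIP-seq lists, with circles for replicate 1, squares for replicate 2 and open symbols at 0 for lists without a peak there. TIMP1 was at 5.81 and 6.05 in untreated and 9.63 and 10.4 in TWEAK-treated control cells.

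The promoters of MMP14, TIMP1 and TIMP3 were available among RefSeq promoters (GRCh38.p14), 3 of the 9 members, and that of TIMP1 is shown because its RNA changed with ETS1 KD and its start carried RNA Pol II in every list. It ends before the first annotated start of the gene, and capitals mark an AGGAAG.
TIMP1, chrX:47582186-47582407, plus strand: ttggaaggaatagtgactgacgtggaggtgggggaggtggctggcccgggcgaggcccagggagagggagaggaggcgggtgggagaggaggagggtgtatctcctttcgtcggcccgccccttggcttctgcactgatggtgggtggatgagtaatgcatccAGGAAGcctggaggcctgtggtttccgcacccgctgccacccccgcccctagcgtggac
No κB match, AP-1 element or CTTCCGG was in the TIMP1 sequence, and none of the motifs was in those of MMP14 and TIMP3. Among 35116 RefSeq promoters, 28.7% held an AGGAAG in the 250 bases before the start, 5.21% a κB match, 6.57% an AP-1 element and 8.52% a CTTCCGG.

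Other genes of the protease system were compared as lists. The share of all genes at an unadjusted p under 0.05 alone was not computed. With a fold of at least 1.5 added it was 7.09% with TWEAK, 5.67% with ETS1 KD and 2.25% with NFKB2 KD. Over all genes DESeq2 called 431 higher and 509 lower with TWEAK, 158 and 376 with ETS1 KD, and 10 and 26 with NFKB2 KD. Of 17 other MMP genes, 8 passed the filter on low counts and edgeR called 0 with TWEAK, with ETS1 KD and with NFKB2 KD. An unadjusted p under 0.05 was found for 2, 1 and 0 of them, and DESeq2 called 0 in each. Of the other MMP inhibitors, TFPI2, an inhibitor of serine proteases that also acts on some MMPs, rose with TWEAK from 753 ± 40.1 to 2393 ± 49.6 CPM (log2 fold change 1.67 ± 0.16, adjusted p = 0.000193), the 1 of 3 tested that was called. TFPI2 was also higher in ETS1 KD than in NFKB2 KD cells (3217 ± 378 and 1439 ± 360 CPM, adjusted p = 0.00341). edgeR called none of the 3 in either KD against control, with an unadjusted p under 0.05 for TFPI2 in both, and DESeq2 called TFPI2 with NFKB2 KD.

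Among 11 tested proteases and surface partners that activate or hold MMPs, PLAUR, the urokinase receptor, rose with TWEAK (178 ± 17.5 to 288 ± 35.0 CPM, adjusted p = 0.00474) and PLAT, tissue plasminogen activator, fell (14.2 ± 1.54 to 7.97 ± 0.802 CPM, adjusted p = 0.0298). edgeR called none of the 11 with ETS1 KD or NFKB2 KD, where 2 and 3 had an unadjusted p under 0.05 and DESeq2 called 1 and 0. Of 14 tested ADAM and ADAMTS genes, none was called with TWEAK (4 at an unadjusted p under 0.05, 3 by DESeq2), and ADAMTS5, an aggrecanase, fell with ETS1 KD from 169 ± 27.3 to 51.0 ± 6.34 CPM (log2 fold change -1.73 ± 0.31, adjusted p = 0.0129). With NFKB2 KD none was called (1 at an unadjusted p under 0.05, 0 by DESeq2).

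Of 13 tested matrix substrates, LAMA4, a laminin chain, fell with TWEAK from 19.4 ± 0.909 to 9.91 ± 0.833 CPM (adjusted p = 0.000733), and COL4A2, a chain of type IV collagen, rose with ETS1 KD from 5.85 ± 0.473 to 11.3 ± 0.733 CPM (adjusted p = 0.0301). With NFKB2 KD edgeR called none (2 at an unadjusted p under 0.05, 0 by DESeq2). Of 17 AP-1, NF-κB and ETS regulators of MMP genes, edgeR called 5 with TWEAK, all higher. They were NFKB2 (log2 fold change 2.35), RELB (1.36), ETS1 (0.86), ETS2 (0.82) and JUNB (0.66). With TWEAK 9 had an unadjusted p under 0.05, and DESeq2 called 7, the same 5 with FOSL1 and ETV4. FOSL1 averaged 220 ± 86.6 CPM untreated and 509 ± 187 CPM after TWEAK. With ETS1 KD and with NFKB2 KD the targeted gene was the 1 regulator that edgeR called, lower in each case. An unadjusted p under 0.05 was found for 3 and 4 regulators, and DESeq2 called 1 and 2. With NFKB2 KD these 4 were NFKB2, RELB, ETS1 and ETS2, and DESeq2 called NFKB2 and RELB. RELB averaged 34.9 ± 4.93 CPM with NFKB2 KD against 56.3 ± 6.76 in TWEAK-treated control cells, and ETS1 60.4 ± 10.1 against 77.5 ± 8.69. p52 sites in both TWEAK-treated control replicates were found at 10 of these 17 genes, at 1 of 17 other MMP genes (MMP25) and at 0 of 4 other MMP inhibitors. They were at 3 of 12 partners, 3 of 16 ADAM and ADAMTS genes and 5 of 17 substrates, beside 3 of 9 members and 11.4% of protein-coding genes. ETS1 sites in TWEAK-treated cells were found at 4 of the 17 other MMP genes (MMP15, MMP16, MMP17 and MMP28) and at TFPI2, beside 0 of 9 members and 9.35% of protein-coding genes. ETS1 sites were also at 5 of 16 ADAM and ADAMTS genes, 4 of 12 partners, 2 of 17 substrates and 4 of 17 regulators. ADAMTS5 and COL4A2, the list genes that edgeR called with ETS1 KD besides ETS1 itself, were among these. The other list genes with an ETS1 site were not called by edgeR with ETS1 KD or were not tested. DESeq2 also called ITGB3 and ADAMTS1, which had an ETS1 site, and LAMA4, which had none.

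The genes whose log2 CPM followed each member most closely over the 12 libraries, among at least 11480 genes with a mean of at least 100 counts, were CTSS and TRAF2 for MMP9 (Pearson's r of 0.97 for both), STXBP5-AS1 (0.90) and MARS1 (0.89) for MMP1, ARIH2 (0.93) and GNPNAT1 (0.91) for MMP3, and SUV39H1 and TACC3 (0.99 for both) for TIMP1. They were TMEM175 and SIX5 (0.98 for both) for MMP2, EEIG1 and DDR1 (0.98 for both) for MMP14, TNS2 (0.99) and DAP (0.98) for TIMP2, and C2CD2 and KREMEN1 (0.95 for both) for TIMP3. The libraries share treatment groups and the GC trend, so these values describe the 12 libraries only.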

How the data were processed

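RNA-seq and ChIP-seq values of U-87 MG cells were used as deposited. PolyA RNA reads were processed by the authors with Trimmomatic, STAR (genome hg38) and featureCounts, and the deposited RNA-seq values are raw counts per gene without normalisation. Versions and the strand setting are not given in the sources used here, so reads of a gene and of its antisense partner cannot be told apart. Antisense partners of members had at most 23 counts in any library. For ChIP-seq the authors mapped reads with Bowtie2 and called peaks per library with MACS2. The deposited peak lists give fold enrichment (a ratio) and −log10 p-values and q-values per peak. The 3 input libraries were not analysed here.

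Counts were filtered with filterByExpr (16879 of 62696 genes, 8 of 9 members) and tested in R 4.3.3 with edgeR 4.0.16 (TMM, quasi-likelihood F-test, 4 groups in one model, adjusted p under 0.05). DESeq2 1.42.0 was an alternative. On simulated counts with 200 changed genes and no GC trend, edgeR recovered 72%, 78% and 71.5% of them in the TWEAK, ETS1 KD and NFKB2 KD comparisons. False calls made up 7.10%, 3.11% and 4.03% of its calls there. With simulated GC trends it recovered 43.5%, 57.5% and 49% (20%, 29% and 21% of genes changed 2-fold), and 66.5%, 77% and 78.5% with GC and length offsets. False calls were then 5.43%, 0% and 2% of calls, and 3.62%, 4.94% and 8.19% with the offsets. CPM used TMM-scaled totals, and RPKM the exon length in GENCODE 44. Replicate counts differed by more than sampling noise. A ChIP-seq site was a region with peaks of both replicates that overlapped by 1 bp or more, and all peaks lay within hg38 chromosomes. Each named gene followed a rule: all members, the 2 targeted genes, up to 4 called genes per list with the largest fold, and the 2 genes most like each member. VIM, GFAP, PTPRC, ITGAM and RBFOX3, with SNAP25, were named from the marker lists after their values were seen. JUNB, FOSL1, ETV4, TIMP4 and list genes with ChIP-seq sites were also named after their values were seen. Members, lists and rules were chosen with earlier results of these data known.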

Additional observations from a re-analysis of the deposited data

How the results depend on the processing

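Of 624 fitted values of single members under the alternatives, 572 kept their side of the threshold, 32 passed it anew, 20 no longer did, and no called value changed direction. With TWEAK, 2 members were called as reported, 5 without the low-count filter, 4 with GC and length offsets and 4 when these were combined with a replicate block. With NFKB2 KD the count went from 0 to 1 with DESeq2, to 1 without the filter and to 1 at an unadjusted p of at most 0.05 with a fold of at least 1.5. For NFKB2 KD TWEAK-treated against untreated cells it went from 1 to 2 with DESeq2, 3 without the filter, 0 with the replicate block, 2 with offsets and block together and 3 at the unadjusted threshold. For ETS1 KD against NFKB2 KD it went from 1 to 3 with DESeq2, 5 without the filter, 3 with offsets, 4 with offsets and block and 3 at the unadjusted threshold. The cause was not tested. RLE size factors gave the same member counts.

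Leaving out 1 replicate at a time gave 2 members in each case with TWEAK, 1 to 2 with ETS1 KD, 0 with NFKB2 KD, 2 to 4 for ETS1 KD TWEAK-treated against untreated cells, 0 to 1 for NFKB2 KD TWEAK-treated against untreated cells and 0 to 2 between the KD groups. Over all genes, the count called with TWEAK was 520 as reported, 940 with DESeq2, 859 without the filter, 949 with offsets, 1398 with offsets and block, 1197 at the unadjusted threshold and 171 to 405 with 1 replicate left out, the lowest without TWEAK-treated control replicate 3. In the same order it was 234, 534, 469, 476, 706, 957 and 102 to 148 with ETS1 KD (lowest without ETS1 KD replicate 3) and 5, 36, 87, 5, 13, 379 and 2 to 4 with NFKB2 KD (lowest without NFKB2 KD replicate 1 or 2). For NFKB2 KD TWEAK-treated against untreated cells it was 102, 308, 278, 213, 331, 671 and 38 to 246, for ETS1 KD against untreated cells 2334 and 4302 with offsets and block, and between the KD groups 327, 808, 781, 809, 1360, 1244 and 76 to 561. Of the calls with ETS1 KD, 18.4% were higher as reported, 29.6% with DESeq2, 37.8% with the offsets and 45.2% with offsets and block. Between the KD groups these shares were 27.5% and 34.9%, 46.0% and 53.8%, and with NFKB2 KD against untreated cells 67.6% and 55.8%, 58.7% and 55.0%. For ETS1 KD against untreated cells it was 45.0% and, with offsets and block, 56.6%. With NFKB2 KD it was 20% of 5 calls, 30.8% with offsets and block and 62.1% of 87 without the filter, and with TWEAK 50.2% and, without the filter, 40.7%. Same-numbered replicates did not deviate together in every pair (r from -0.18 to 0.49 with TWEAK, -0.30 to 0.35 with ETS1 KD and 0.095 to 0.41 with NFKB2 KD), and not every library correlated best with its own number, so the numbers were not taken as pairs. The replicate block moved the counts over all genes to 657, 252 and 4 and left the member counts at 2, 2 and 0 with TWEAK, ETS1 KD and NFKB2 KD.

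For p52 with guide 1, 2 members had a peak in either replicate against 0 in both, and 0 to 2 did with 1 replicate left out. With guide 2 and in TWEAK-treated control cells 3 to 4 did with 1 replicate left out, and in untreated cells 0. For ETS1, 1 member, MMP9, had a site within 50 kb in TWEAK-treated cells against 0 within 15 kb. For RNA Pol II, leaving out 1 list gave 5 members in untreated, 4 to 6 in TWEAK-treated control and 4 to 5 in ETS1 KD and NFKB2 KD cells. Other windows and a −log10 q of at least 5 stayed within 1.5 times the main counts. MMP9 rested on few counts, and both the number of listed peaks and that of members with a peak differed between replicate lists.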
